A study of Mus musculus with 8 samples.

Results

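The genes described here are 9 of the 49671 genes in the deposited tables: F3, F7, F10 and F5, which start the clotting cascade and carry it to thrombin; Tfpi and Thbd, which restrain it; and Plau, Plaur and Serpinb2, which govern the activation of plasminogen. They were chosen by name, for the roles of their proteins, and all 9 had enough reads to be tested. Exudate leukocytes of 8 male wild-type C57BL/6 mice, 6 to 8 weeks old, were sequenced, with 1 library for each mouse. In the SPM group (4 mice), a panel of 5 specialized pro-resolving mediators, lipid signals that end acute inflammation (the resolvins RvD1, RvD2, RvD5 and RvE2 and the maresin MaR1), was injected into the peritoneum at 0.1 ng per mediator. Injections were given on day 0 and repeated on days 2, 5, 7 and again on day 9, and the last came on day 12 together with zymosan A. The vehicle group (4 mice) had the same injections of diluted ethanol in saline, and mice of both groups had 1 mg of zymosan A, a yeast cell wall preparation that elicits sterile peritonitis, on day 12. Peritoneal exudates were taken 12 h later, so no mouse without zymosan is among the samples. The cells were not sorted, and the RNA is that of a mixture of leukocytes.

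The libraries held 15154054 to 21114301 reads assigned to genes, and 21423 genes had at least 10 counts over the 8 libraries. The exudates held leukocytes of several kinds by their marker genes, listed with the results on cell types. SPM mice 3 and 4 stood apart from the other mice on some tissue remodelling genes. Mmp3, a matrix metalloproteinase, was at 11.1 and 10.7 CPM in these mice, and between 1.75 and 2.91 CPM in the other 6. Where a call on a gene of these pathways ended without these 2 mice, its p-value is given with and without them. CPM are counts scaled by library size with TMM factors and serve to compare 1 gene between mice. TPM also divide by the length of the gene and serve to compare genes with each other.

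Clotting in inflamed tissue begins when tissue factor, the product of F3, is exposed on macrophages, monocytes or stromal cells and binds factor VIIa. The pair activates factor X, which with factor Va turns prothrombin into thrombin, and thrombin makes fibrin. Fibrin is removed by plasmin, which is made from plasminogen by urokinase at the surface of cells that bear its receptor, and fibrin deposits together with macrophages are known to form clots in the inflamed peritoneum. Macrophages of the mouse peritoneum are a known source of factors V, VII and X outside the liver.

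F7 and F10 are neighbours on chromosome 8 of GRCm38, F7 at chr8:13026034-13035809 and F10 at chr8:13037308-13056676, both on the + strand with 1498 bases between them. The other genes lie apart, F3 at chr3:121723537-121735048 (+), F5 at chr1:164151838-164220277 (+), Tfpi at chr2:84432855-84476775 (-), Thbd at chr2:148404466-148408188 (-), Plau at chr14:20836662-20843388 (+), Plaur at chr7:24462484-24475968 (+) and Serpinb2 at chr1:107511423-107535478 (+). Thbd has 1 exonic block and F5 has 25. By the exon coordinates deposited with the counts, 291 exon bases of Serpinb2 (12.4% of its exon length) are shared with Serpinb10 on the same strand, and 262 of F5 (3.53%) lie opposite the antisense gene Gm16548. Serpinb10 had 585 counts over the 8 libraries and Gm16548 had 134, against 5495 for Serpinb2 and 12941 for F5. The strand setting of the counting is not given in the sources used here, so reads of the bases that F5 shares with Gm16548 could not be told apart, and those of Serpinb2 and Serpinb10 could not be under any setting.

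The RefSeq table of promoters for GRCm38.p6 matched 7 of the 9 genes, F3, F5, F7, F10, Tfpi, Plaur and Serpinb2. The 250 bases before the start site are printed for 5 of them, 5′ to 3′ on the strand of the gene. F7 and F10 are shown because they are neighbours with very unequal levels, and F3, Plaur and Serpinb2 because each held the letters of an AP-1 motif, the binding motif of Fos and Jun proteins. Capitals mark every match, on both strands, to AP-1 (TGANTCA), to PU.1 (GAGGAA, or TTCCTC on the other strand) and to the GC box (GGGCGG, or CCGCCC on the other strand), and matches of the same motif may overlap. NF-kB was also searched, with a fixed pattern of letters, and no match to that pattern lay in any of these windows. Variants of the pattern were not searched, so the lack of a match does not show that these windows hold no NF-kB site.
F7, chr8:13025784-13026033, + strand: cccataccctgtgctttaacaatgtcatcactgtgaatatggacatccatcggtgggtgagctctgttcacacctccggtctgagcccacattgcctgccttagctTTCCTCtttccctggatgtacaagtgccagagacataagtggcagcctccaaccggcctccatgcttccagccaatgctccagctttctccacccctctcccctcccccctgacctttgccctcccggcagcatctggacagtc
F10, chr8:13037058-13037307, + strand: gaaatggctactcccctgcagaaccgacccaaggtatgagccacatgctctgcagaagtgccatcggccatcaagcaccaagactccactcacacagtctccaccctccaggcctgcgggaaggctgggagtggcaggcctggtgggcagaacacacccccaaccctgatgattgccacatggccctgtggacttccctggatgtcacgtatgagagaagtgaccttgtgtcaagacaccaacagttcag
F3, chr3:121723287-121723536, + strand: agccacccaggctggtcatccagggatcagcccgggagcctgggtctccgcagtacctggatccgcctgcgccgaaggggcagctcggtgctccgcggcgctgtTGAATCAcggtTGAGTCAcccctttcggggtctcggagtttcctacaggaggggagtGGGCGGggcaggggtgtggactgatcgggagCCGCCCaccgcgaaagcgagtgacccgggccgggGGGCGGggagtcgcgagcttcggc
Plaur, chr7:24462233-24462482, + strand: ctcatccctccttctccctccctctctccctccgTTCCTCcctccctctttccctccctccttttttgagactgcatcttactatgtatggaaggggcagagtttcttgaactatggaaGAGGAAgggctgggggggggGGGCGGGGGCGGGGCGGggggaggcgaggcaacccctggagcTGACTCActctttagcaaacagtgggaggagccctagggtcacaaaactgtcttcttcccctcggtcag
Serpinb2, chr1:107511173-107511422, + strand: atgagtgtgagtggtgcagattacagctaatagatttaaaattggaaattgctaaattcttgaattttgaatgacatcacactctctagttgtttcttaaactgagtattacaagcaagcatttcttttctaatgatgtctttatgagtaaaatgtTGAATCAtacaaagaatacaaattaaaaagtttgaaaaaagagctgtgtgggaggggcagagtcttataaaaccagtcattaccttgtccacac

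The AP-1 letters occurred 2 times before F3 (TGAATCA from 146 to 140 and TGAGTCA from 135 to 129 bases before the start), 1 time before Plaur (TGACTCA, 69 to 63 bases before it) and 1 time before Serpinb2 (TGAATCA, 94 to 88 bases before it). They were absent from the windows of F5, F7, F10 and Tfpi. Among 32851 promoter windows of the same length, 6.75% held the AP-1 letters, 23.3% those of PU.1, 32.7% the GC box and 1.21% the NF-kB pattern. The F7 window held 1 PU.1 match, and the F10 window held none of the 4 motifs. The Serpinb2 window was the poorest in G and C of the 7, at 32.4%, and the F3 window the richest, at 70%. These matches describe letters only.

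F10, the zymogen of the enzyme that activates prothrombin, was by far the most abundant of the 9 transcripts, and F3 and Tfpi, the trigger of the cascade and its inhibitor, were the scarcest. On the scale of TPM, F10 was at 804 ± 149 (SD, n = 8) and ranked 180 among the 21423 genes tested. It made up between 58.4% and 68.3% of the summed TPM of the 9 genes in each mouse. Plaur, the urokinase receptor, followed at 273 ± 25.3 TPM (SD, n = 8), rank 575. Then came F7 at 54.4 ± 9.33, Serpinb2 at 42.4 ± 23.6, Thbd at 41.8 ± 10.7, Plau at 36.2 ± 10.95 and F5 at 32.3 ± 8.13 TPM (SD, n = 8 for each). F3 was at 2.19 ± 0.811 TPM and Tfpi at 1.09 ± 0.267 (SD, n = 8 for each).

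**Figure D1:**
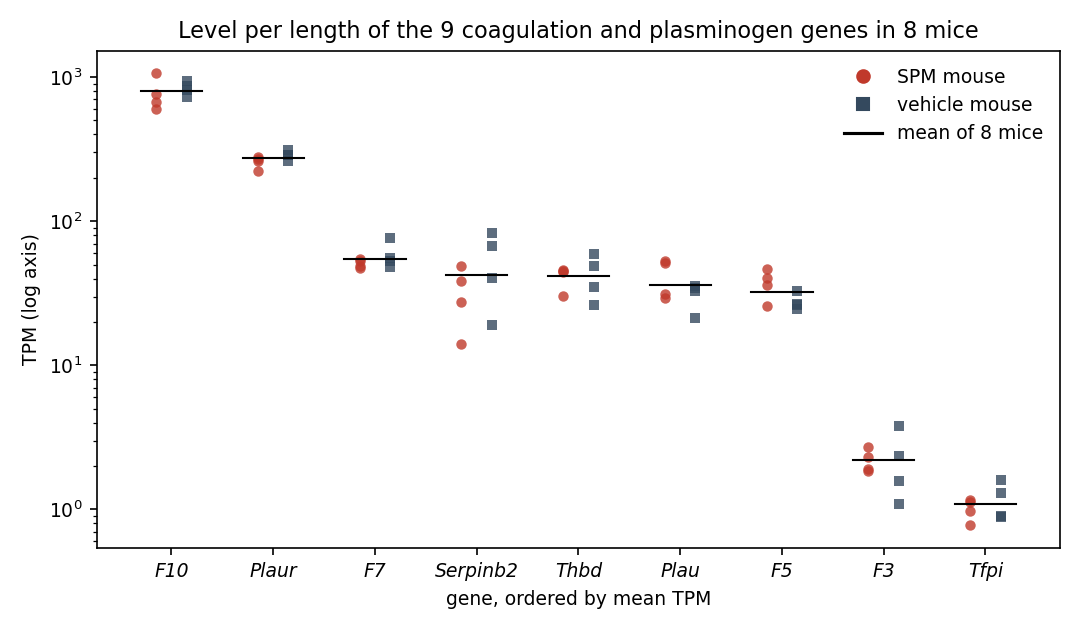
Level of each gene in TPM, on a log axis, in each of 4 SPM mice (circles) and 4 vehicle mice (squares), ordered by the mean of the 8 mice (line). F10 lies between 598 and 1061 TPM and Plaur between 224 and 310, each gene from F7 to F5 overlaps the next in the order, and F3 and Tfpi lie below 4.

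The 8 mice did not overlap between F10 and Plaur, between Plaur and F7, or between F5 and F3. Within the middle group neighbours in the order did not differ beyond their spread. F7 was above Serpinb2 in 7 of 8 mice, Serpinb2 above Thbd in 3 of 8, Thbd above Plau in 6 of 8, and Plau above F5 in 4 of 8. F3 was above Tfpi in 7 of 8 mice, with overlapping ranges. Though F7 and F10 are neighbours, F10 was 12.3 to 19.5 times F7 in TPM within a mouse.

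The comparison of the groups asks what repeated low doses of the mediators, followed by zymosan, left changed in the exudate cells. Of the 9 genes, 1 had an unadjusted p under 0.05 in the quasi-likelihood test of edgeR (F5, higher after SPM), where 6.08% of all genes tested had one, 2.49% in the direction of higher levels. By the same test adjusted with the Benjamini-Hochberg method, none of the 9 genes passed 0.05, and none of the 21423 genes tested did (0%), with 0.790 as the smallest adjusted p. DESeq2 and limma on log2(TPM + 1) also called none of the 9 after adjustment. The fitted value was higher after SPM for 2 genes (F5 and Plau) and lower for 7. Their median log2 fold change was -0.15, against -0.017 over all genes tested, of which 47.2% were higher. In none of the 9 did the CPM of the groups separate without overlap, which 3.83% of all genes tested did, 1.46% with higher and 2.37% with lower levels after SPM. A difference in a bulk sample can come from fewer cells of a type or from less RNA per cell, and these cannot be told apart.

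**Figure D2:**
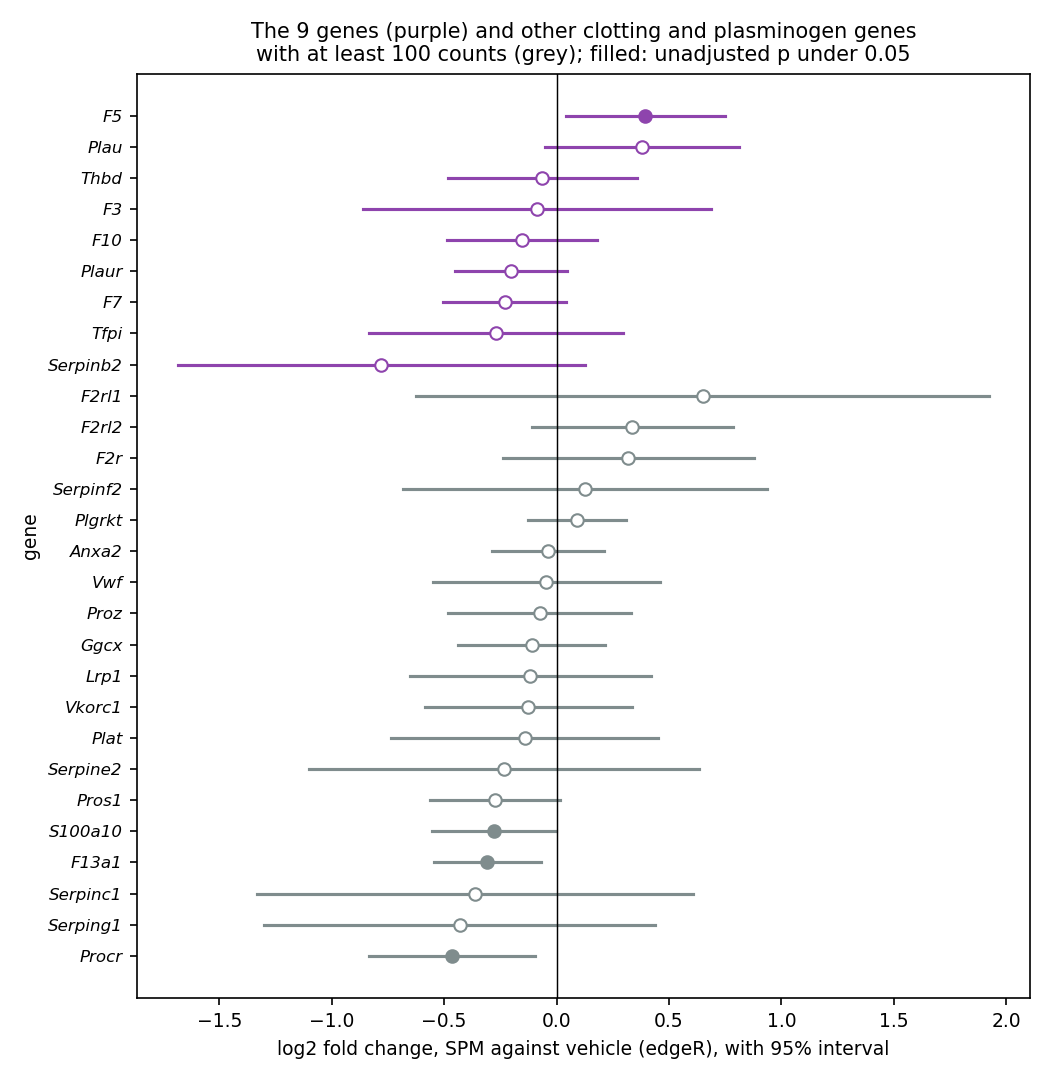
The log2 fold change of SPM against vehicle from edgeR (x axis) with its 95% interval for the 9 genes (purple) and for 19 other clotting and plasminogen genes with at least 100 counts (grey). Filled points have an unadjusted p under 0.05. The interval of F5 alone among the 9 excludes 0, and the widest of the 9, that of Serpinb2, runs from -1.68 to 0.13.

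Of the genes that start the cascade, F3, which encodes tissue factor, measured 1.99, 1.64, 1.72 and 2.33 CPM in the SPM mice, numbered 1 to 4, and 1.38, 0.935, 3.77 and 2.10 CPM in the vehicle mice, in the same order of numbers. All SPM mice lay within the range of the vehicle mice, of which mouse 2 was the lowest and mouse 3 the highest of the 8. These levels rest on 20 to 74 counts per library. The log2 fold change was -0.09 (95% interval -0.86 to 0.69, adjusted p = 0.976 by edgeR) and turned to 0.38 when vehicle mouse 3 was left out and to 0.06 with limma on log2(TPM + 1).

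F7, which encodes the protease that tissue factor binds, was at 29.6, 31.8, 35.5 and 34.6 CPM after SPM and at 49.4, 34.9, 35.1 and 34.6 CPM after vehicle. Vehicle mouse 1 stood above the 7 others, which lay between 29.6 and 35.5. The means were 32.8 ± 2.69 and 38.5 ± 7.26 CPM (SD, n = 4 each). The log2 fold change was -0.23 (SE 0.13, adjusted p = 0.794 by edgeR), and -0.09 when vehicle mouse 1 was left out.

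F10 reached 553, 646, 747 and 989 CPM after SPM and 891, 749, 785 and 839 CPM after vehicle. Of the SPM mice, 3 were below every vehicle mouse and mouse 4 was above them all. The SPM group therefore spread more widely, 733 ± 188 CPM against 816 ± 62.1 (SD, n = 4 each), and the log2 fold change was -0.15 (95% interval -0.49 to 0.18, adjusted p = 0.872 by edgeR). Leaving out SPM mouse 4 gave -0.32 with an unadjusted p of 0.0248, and leaving out SPM mice 3 and 4 together gave -0.44 with an unadjusted p of 0.00670. Leaving out SPM mouse 1 or SPM mouse 2 brought it to -0.030 or -0.097, with an unadjusted p of 0.837 or 0.581.

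F5 encodes factor V, the cofactor of factor Xa. It was at 90.4, 105, 125 and 65.3 CPM after SPM and at 67.9, 66.9, 71.9 and 86.4 CPM after vehicle. SPM mice 1, 2 and 3 were above every vehicle mouse, and SPM mouse 4 was below them all. The group means were 96.3 ± 25.0 and 73.3 ± 9.04 CPM (SD, n = 4 each), a log2 fold change of 0.39 (SE 0.16, 95% interval 0.04 to 0.75, unadjusted p = 0.0310, adjusted p = 0.790 by edgeR), which is a level 31.5% higher. A two-sided exact permutation test of the log2 CPM gave p = 0.171. In edgeR the call was lost when SPM mouse 2, SPM mouse 3, vehicle mouse 1 or vehicle mouse 2 was left out, with unadjusted p values of 0.0771, 0.135, 0.0723 and 0.0688. Without SPM mouse 4 the log2 fold change of F5 was 0.56 (unadjusted p = 0.00123 by edgeR), and without SPM mice 3 and 4 together it was 0.42 (unadjusted p = 0.00905 by edgeR). SPM mouse 4, with the highest F10 of the 8, had the lowest F5. The ratio of F10 to F5 in TPM was 16.6, 16.8, 16.3 and 41.2 after SPM and 35.7, 30.5, 29.7 and 26.4 after vehicle (two-sided exact permutation test, p = 0.143). SPM mice 1, 2 and 3 were below every vehicle mouse in this ratio, and SPM mouse 4 was above them all.

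**Figure D3:**
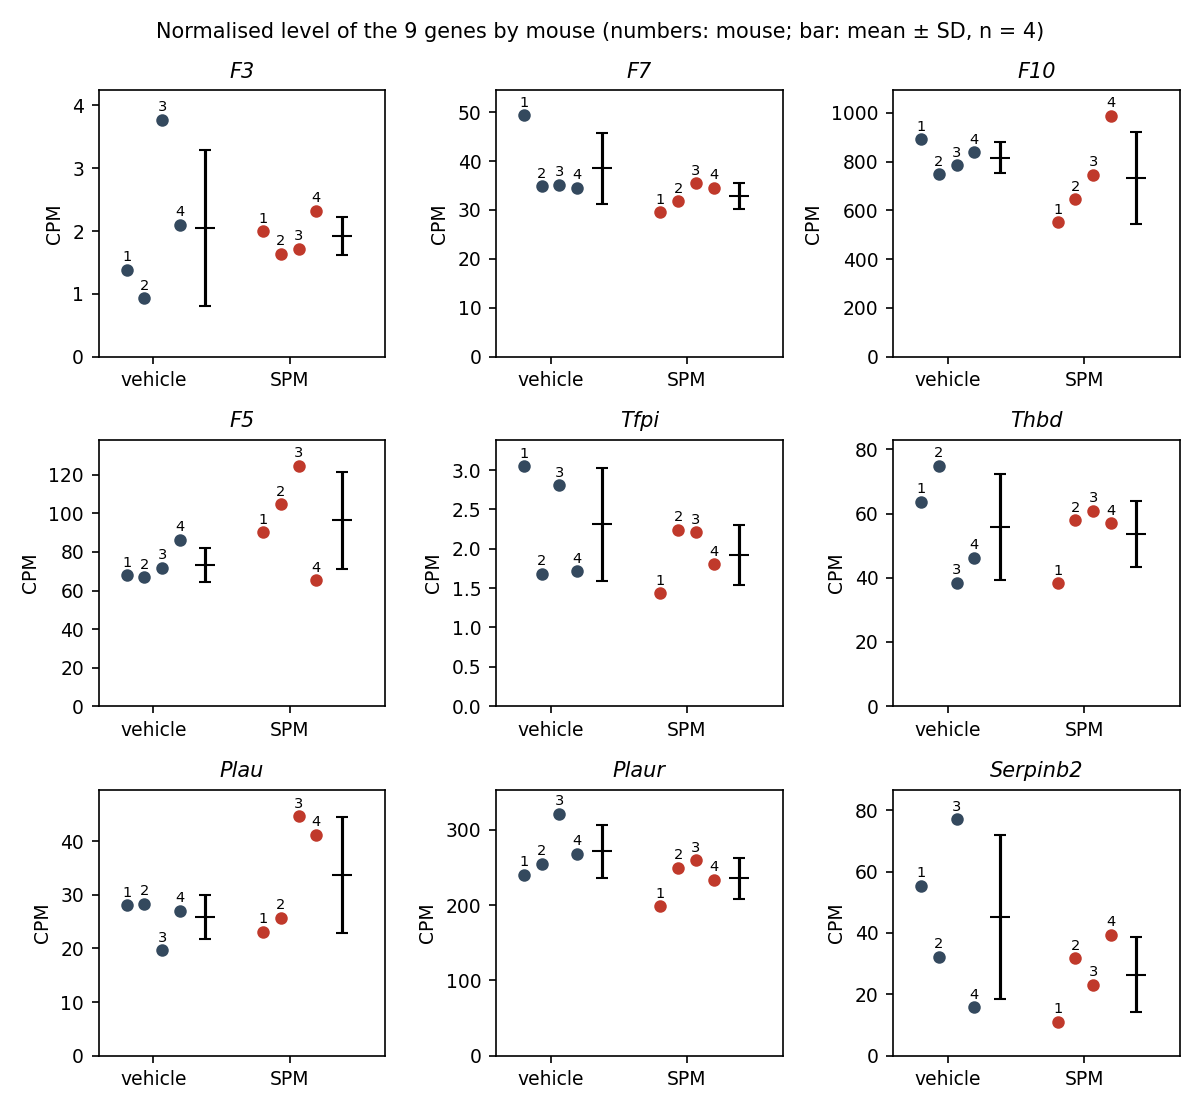
CPM (y axis, from 0) of each of the 9 genes in the vehicle mice (dark) and the SPM mice (red), each point labelled with the number of its mouse, with the mean ± SD of each group of 4. The groups overlap in every panel. SPM mouse 4 is the highest for F10 and the lowest for F5, and SPM mice 3 and 4 are the highest for Plau.

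Neither of the inhibitors of coagulation among the 9 genes was called. Tfpi, which encodes tissue factor pathway inhibitor, was at 1.44, 2.24, 2.21 and 1.81 CPM after SPM and at 3.05, 1.68, 2.80 and 1.71 CPM after vehicle. Vehicle mice 1 and 3 were the highest and SPM mouse 1 the lowest of the 8, from 28 to 64 counts per library. Its log2 fold change was -0.27 (95% interval -0.83 to 0.30, adjusted p = 0.867 by edgeR), and -0.13, -0.10 and -0.16 when SPM mouse 1, vehicle mouse 1 or vehicle mouse 3 was left out.

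Thbd encodes thrombomodulin, which turns thrombin towards the activation of protein C. It was at 38.3, 58.0, 60.8 and 56.9 CPM after SPM and at 63.7, 74.9, 38.5 and 46.3 CPM after vehicle. Levels near 38 CPM occurred in both groups, and the highest level was in vehicle mouse 2. The log2 fold change was -0.06 (95% interval -0.49 to 0.36, adjusted p = 0.966 by edgeR). It turned positive when SPM mouse 1 (0.08), vehicle mouse 1 (0.01) or vehicle mouse 2 (0.12) was left out, and with limma on log2(TPM + 1) (0.01). Within a mouse, Thbd was 6.93 to 54.4 times F3 in TPM, with the lowest and the highest ratio both among the vehicle mice.

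Of the plasminogen genes, Plau, which encodes the urokinase-type activator, was at 23.2, 25.8, 44.7 and 41.3 CPM after SPM and at 28.1, 28.4, 19.7 and 27.1 CPM after vehicle. SPM mice 3 and 4 were above all vehicle mice, and SPM mice 1 and 2 were within their range. The means were 33.7 ± 10.9 and 25.8 ± 4.10 CPM (SD, n = 4 each), and the log2 fold change was 0.38 (SE 0.20, 95% interval -0.05 to 0.81, unadjusted p = 0.0786, adjusted p = 0.791 by edgeR). SPM mice 3 and 4 are those that stood apart on Mmp3, and on Il11 (15.5 and 14.5 CPM, against 2.34 to 4.49 in the other 6 mice). Without them the log2 fold change of Plau was -0.07. Without SPM mouse 1 or SPM mouse 2 it was 0.54 or 0.49, with an unadjusted p of 0.0145 or 0.0344.

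Plaur encodes the receptor that holds urokinase on the cell surface. It was at 199, 250, 260 and 234 CPM after SPM and at 241, 255, 321 and 268 CPM after vehicle. SPM mouse 1 was the lowest and vehicle mouse 3 the highest of the 8, with the other 6 between 234 and 268. The means were 236 ± 26.8 and 271 ± 35.2 CPM (SD, n = 4 each), with a log2 fold change of -0.20 (95% interval -0.45 to 0.05, adjusted p = 0.795 by edgeR). The sign held with every mouse left out in turn (-0.26 to -0.11). The receptor exceeded its ligand in every mouse. The ratio of Plaur to Plau in TPM was 6.66 ± 1.81 after SPM and 9.79 ± 3.23 after vehicle (SD, n = 4 each, two-sided exact permutation test p = 0.143).

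Serpinb2 encodes plasminogen activator inhibitor 2, an inhibitor of urokinase that macrophages make and keep largely inside the cell. Its level varied more than that of the other 8 genes, 6.92 times between the lowest and the highest mouse. It was at 11.1, 31.8, 23.2 and 39.5 CPM after SPM and at 55.3, 32.3, 77.0 and 15.9 CPM after vehicle. Vehicle mice 1 and 3 were the highest, and vehicle mouse 4 was lower than 3 of the SPM mice. The spread of its log2 CPM over the 8 mice (SD 0.91) was larger than that of 99.4% of the genes with a mean of at least 1 CPM. The means were 26.4 ± 12.2 and 45.1 ± 26.7 CPM (SD, n = 4 each), and the log2 fold change was -0.78 (SE 0.42, 95% interval -1.68 to 0.13, unadjusted p = 0.0856, adjusted p = 0.793 by edgeR). Without SPM mouse 4 it was -1.02 (unadjusted p = 0.0470), without vehicle mouse 4 -1.06 (unadjusted p = 0.0128), and without vehicle mouse 3 -0.39. When genes with as few as 1 count were kept, edgeR gave Serpinb2 an adjusted p under 0.05, in a fit that no longer used the spread of single genes.

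Other genes of the clotting and plasminogen systems gave the 9 their setting, 40 in all, of which 28 had enough reads to be tested. The fitted value was higher after SPM for 8 and lower for 20, with a median log2 fold change of -0.11. An unadjusted p under 0.05 by edgeR was given to 5, all lower after SPM, where 3.59% of all genes tested were called in that direction, and none passed after adjustment. Several genes of the cascade that the liver is known to express had few or no counts. F13b and Serpina10 had no counts, and over all 8 libraries together Plg, the gene of plasminogen, had 3, Fga 4, Fgb 2, Fgg 1, Proc 2, F11 2 and Kng1 2.

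F13a1 encodes the subunit of factor XIII that cross-links fibrin, and it was the most abundant clotting factor after F10, at 398 ± 63.6 TPM (SD, n = 8). Its CPM were 463, 549, 509 and 453 after SPM and 702, 634, 550 and 558 after vehicle. The groups did not overlap, by a gap between 549 and 550 CPM, as for 2.37% of all genes tested in this direction. The log2 fold change was -0.31 (SE 0.11, unadjusted p = 0.0151, adjusted p = 0.790 by edgeR). The unadjusted p rose to 0.0513 without SPM mouse 4, to 0.0680 without vehicle mouse 1, to 0.0618 with limma on log2(TPM + 1) and to 0.0932 without SPM mice 3 and 4 together, where the log2 fold change was -0.26.

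Procr, the endothelial protein C receptor, was at 8.60 ± 1.33 CPM after SPM and 11.9 ± 2.52 after vehicle (SD, n = 4 each), with a log2 fold change of -0.47 (SE 0.17, unadjusted p = 0.0177 by edgeR). That call was lost with SPM mouse 2, vehicle mouse 1 or vehicle mouse 3 left out, with unadjusted p values of 0.0594, 0.0526 and 0.0560 from edgeR, and with SPM mice 3 and 4 left out together (0.0734), where the log2 fold change stayed at -0.46. S100a10, a plasminogen-binding partner of annexin A2, was at 133 ± 12.0 and 161 ± 28.9 CPM (SD, n = 4 each), with a difference of -0.28 on the log2 scale (unadjusted p = 0.0483 by edgeR), and lost the call in 13 of 18 alternatives, among them the fit without SPM mice 3 and 4 (-0.20, unadjusted p = 0.259). F2, which encodes prothrombin, had 1, 0, 0 and 0 counts in the SPM mice and 5, 4, 2 and 1 in the vehicle mice, too few for a level, and its unadjusted p by edgeR was 0.0145 with all 8 mice and 0.0878 without SPM mice 3 and 4.

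By list, the other clotting factors had 9 of 15 genes tested, 3 higher and 6 lower, with F13a1 and F2 called lower. Their most abundant members besides F13a1 were Vkorc1, which recycles vitamin K (6.96 TPM), and Ggcx, the carboxylase that vitamin K serves (3.99 TPM), with log2 fold changes of -0.13 and -0.11. The other anticoagulants had 5 of 9 genes tested, 5 lower, with Procr called lower. Pros1, which encodes protein S, was at 11.4 ± 2.01 and 13.8 ± 0.688 CPM (SD, n = 4 each, log2 fold change -0.27, unadjusted p = 0.0631 by edgeR, and -0.38 with 0.0146 without SPM mouse 2), and Proz, which encodes protein Z, had a log2 fold change of -0.08 that turned to 0.03 without SPM mouse 2 and 0.06 without vehicle mouse 4.

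The other plasminogen genes had 10 of 12 tested, 2 higher and 8 lower, with 2 called lower, S100a10 among them. Anxa2, a plasminogen receptor, was at 805 ± 65.0 TPM and Lrp1, which clears complexes of proteases and serpins, at 204 ± 61.7 TPM (SD, n = 8 each). Their log2 fold changes were -0.04 and -0.12, and each turned positive in some alternatives. That of Lrp1 was -0.35 without vehicle mouse 3, with an unadjusted p of 0.0302 by edgeR. All 4 protease-activated receptors were tested, 3 higher and 1 lower, none with an unadjusted p under 0.05. F2r, the main thrombin receptor, had a log2 fold change of 0.32 (95% interval -0.24 to 0.88). It ran from 0.17 (without SPM mouse 1 or SPM mouse 3) to 0.51 with each mouse left out, and passed only without SPM mouse 2 (unadjusted p of 0.0458 by edgeR). F2rl2 had one of 0.34 (-0.11 to 0.78) and F2rl1 of 0.65 (-0.62 to 1.92), which turned to -0.38 without SPM mouse 1.

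The labelled leukocytes were checked against lists of marker genes, summed in CPM. Every marker had reads, and 4 of them (Muc16, Cldn5, Gp9 and Gp1bb) were at 0 in 1 or more libraries. Called here means an unadjusted p under 0.05 by edgeR, which 2.49% of all genes tested had in the direction of higher and 3.59% in that of lower levels, and no marker passed after adjustment. Neutrophil markers summed to between 16982 and 24995 CPM after SPM and between 12772 and 23481 after vehicle, with 9 of 10 genes higher and 2 called. Monocyte markers were at 2994 to 3710 and 3098 to 4372 CPM, with 8 of 8 lower and none called, and macrophage markers at 1514 to 2147 and 1854 to 2225 CPM, with 8 of 8 lower and none called. Markers of resident large peritoneal macrophages were at 53.8 to 81.9 and 53.9 to 149 CPM, with 8 of 10 lower and 2 called (Prg4 and Garnl3). B cell markers were at 1028 to 2135 and 1060 to 1446 CPM (5 of 5 higher, 1 called) and mast cell markers at 50.6 to 89.4 and 60.8 to 79.9 CPM (4 of 6 higher, none called).

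Markers of cells other than leukocytes also had reads, and which cells these reads came from was not tested. Platelet markers summed to 25.3 to 51.0 CPM after SPM and 37.2 to 91.6 after vehicle (5 of 8 higher, Pf4 called lower). Fibroblast markers were at 48.5 to 75.2 and 38.8 to 102 CPM (7 of 8 lower, Pdgfrb called higher), endothelial markers at 9.17 to 15.5 and 9.43 to 24.9 CPM (7 of 7 lower, none called) and mesothelial markers at 4.77 to 6.88 and 4.90 to 9.68 CPM (6 of 7 lower, Krt19 called lower). Single genes held much of 2 of these sums. Pf4 had a mean of 27.9 of the 42.0 CPM of platelet markers after SPM, and 45.1 of 59.1 after vehicle. Kdr had a mean of 8.94 of the 12.7 CPM of endothelial markers after SPM, and 12.3 of 16.6 after vehicle. The part of cells other than leukocytes in the levels of the 9 genes was not tested. Per unit of macrophage markers, F5 was 0.57 higher after SPM on the log2 scale (two-sided exact permutation test, p = 0.0571) and F10 0.02 higher (p = 0.943).

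From mouse to mouse, Serpinb2 followed the summed markers of resident large peritoneal macrophages, less closely with Prg4 left out of the sum. These macrophages are the long-lived cells that patrol the unperturbed cavity. The marker sum over 10 genes was 53.8, 77.5, 81.9 and 80.4 CPM after SPM and 149, 89.5, 149 and 53.9 CPM after vehicle. The mice with the lowest sums, SPM mouse 1 and vehicle mouse 4, also had the lowest Serpinb2, and the highest pair, vehicle mice 1 and 3, had the highest. Over the 8 mice, Pearson's r of Serpinb2 with the sum was 0.933 (exact permutation p = 0.00317, 0.0286 after Benjamini-Hochberg adjustment over the 9 relations computed). Spearman's rho was 0.881 (exact permutation p = 0.00724, adjusted 0.0652). Without the 2 mice farthest from the median sum, r was 0.882. Between the deviations of the mice from their group means, r was 0.920 (0.753 with Prg4 left out of the sum). The part of these cells in the level of Serpinb2 was not tested. Expressed per unit of the marker sum, Serpinb2 ranged 2.51 times between mice, and the difference between the groups was -0.20 on the log2 scale (two-sided exact permutation test, p = 0.629), which turned to 0.02 without SPM mouse 1. Per unit of macrophage markers the difference was -0.48 (two-sided exact permutation test, p = 0.457). The summed platelet markers had the same mice at their extremes. They were lowest in SPM mouse 1 and vehicle mouse 4 (25.3 and 37.2 CPM) and highest in vehicle mice 1 and 3 (59.8 and 91.6 CPM). Correlations of Serpinb2 with the marker sums of other cell types were not computed, so the relation is not shown to be particular to resident macrophages.

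**Figure D4:**
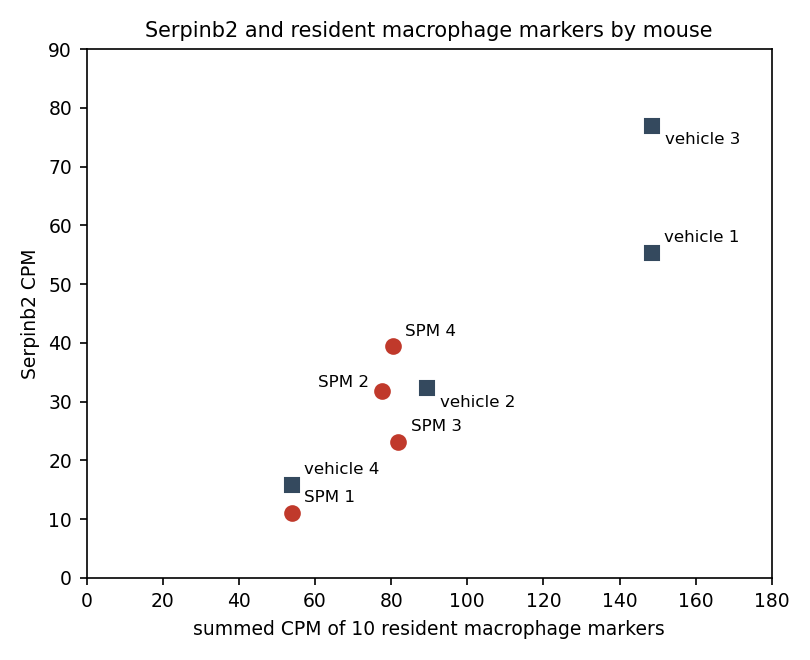
Serpinb2 (y axis, CPM) against the summed CPM of 10 markers of resident large peritoneal macrophages (x axis) in 4 SPM mice (circles) and 4 vehicle mice (squares). Vehicle mice 1 and 3, with sums of 149 CPM, have the highest Serpinb2 (55.3 and 77.0 CPM), and SPM mouse 1 and vehicle mouse 4, with sums of 53.8 and 53.9 CPM, the lowest (11.1 and 15.9 CPM).

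A large share of the sum of resident macrophage markers was Prg4, the gene of lubricin, which was at 11.1 to 37.7 CPM after SPM and 16.2 to 84.9 after vehicle. With Prg4 left out of the sum, r of Serpinb2 was 0.750 (exact permutation p = 0.0344, adjusted 0.155) and rho 0.643 (exact permutation p = 0.0962, adjusted 0.433). Without the 2 mice farthest from the median of that smaller sum, r of Serpinb2 was 0.536. Per unit of the sum without Prg4, a ratio chosen after the data were seen, Serpinb2 ranged 4.43 times between mice, and its difference between the groups was -0.59 on the log2 scale (two-sided exact permutation test, p = 0.286). Tfpi also had a high r with the sum of 10 markers, 0.879 (exact permutation p = 0.00789, adjusted 0.0355), with rho 0.667 (exact permutation p = 0.0831, adjusted 0.249). Without the 2 mice farthest from the median of the sum of 10 markers, r of Tfpi was 0.569. With Prg4 left out, r of Tfpi was 0.895 (exact permutation p = 0.00419, adjusted 0.0377) and rho 0.786 (exact permutation p = 0.0279, adjusted 0.251), and without the 2 farthest mice of that sum r was 0.923. For F7, r was 0.703 (exact permutation p = 0.0280, adjusted 0.0841) and rho 0.810 (exact permutation p = 0.0218, adjusted 0.0980). Without the 2 farthest mice r of F7 was 0.541, and with Prg4 left out of the sum it was 0.474 (exact permutation p = 0.238, adjusted 0.563) with rho 0.524 (exact permutation p = 0.197, adjusted 0.590). None of the other 6 genes reached an adjusted p under 0.05.

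Relations among the 9 genes themselves were computed for 36 pairs, and none passed 0.05 after adjustment over the pairs. The closest were F3 with Thbd (r = -0.817, exact permutation p = 0.0108, adjusted 0.288, rho = -0.810, p = 0.0218, adjusted 0.680) and Tfpi with Serpinb2 (r = 0.810, exact permutation p = 0.0160, adjusted 0.288, rho = 0.714, p = 0.0576, adjusted 0.680). Without the 2 farthest mice these were -0.538 and 0.558.

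Among 12880 genes with a mean of at least 1 CPM, the genes whose profile over the 8 mice was most like that of each of the 9 were found by the root mean square difference of centred log2 CPM. For Serpinb2 they were Slc7a2 (0.34), an arginine transporter, and Prg4 (0.35), with r of 0.926 and 0.939. The nearest genes to F10 were Frrs1 (0.08) and Scamp1 (0.09), and to Plaur Cdc42ep2 (0.05) and Ptov1 (0.06). Thbd was most like Havcr2 (0.11), which encodes the receptor Tim-3, and Gorasp1 (0.13). F5 was most like Cnnm2 (0.11) and Gm26792 (0.14), and F7 like Slc11a2 (0.09), a divalent metal transporter, and Abcc5 (0.09). For Plau they were Zfp174 and Cntln (0.10 and 0.11), for Tfpi Chac2 and Pomk (0.15 each) and for F3 B230208H11Rik and Mapk13 (0.17 and 0.19). None of the 9 was the nearest gene of another. With 8 mice and 12880 genes searched, a close match is a description of these libraries.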

How the data were processed

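RNA-seq was carried out on peritoneal exudate leukocytes of 4 SPM mice and 4 vehicle mice, grouped by the sample labels. The labels give polyA RNA. As stated by the authors and in the submitters' processing notes, reads were trimmed (Trimmomatic 0.36), mapped to GRCm38 with ERCC spike-ins (STAR 2.5.2b) and counted when unique and exonic (featureCounts, Subread 1.5.2). The annotation release and strand setting are not given in the sources used here. The deposited counts are raw counts per gene. The TPM deposited by the authors equal counts per length, scaled per library with the spike-ins, to within 5.0e-05. The 8 libraries' own files matched the joined count table. Between 15154054 and 21114301 reads were counted per mouse.

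Genes with at least 10 counts in total were tested in edgeR 4.0.16 under R 4.3.3 (quasi-likelihood F test, TMM scaling, spike-ins left out, no covariate, Benjamini-Hochberg adjustment over 21423 genes). DESeq2 1.42.0, which the authors also used, on genes with at least 1 count, limma 3.58.1 on log2(TPM + 1) and log2(TPM + 0.1), other scalings and filters, each mouse left out in turn, SPM mice 3 and 4 left out together and the mouse number as a block were alternatives. Single values were tested with two-sided exact permutation tests over the 70 arrangements of the mice, whose smallest p is 0.0286. A prior count of 2 was added for log2 CPM, and fold changes from limma are on the log2(TPM + pseudocount) scale, which understates low genes. Each mouse was 1 library.

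The 9 genes, the lists of other clotting factors, anticoagulants, plasminogen genes, protease-activated receptors and cell type markers, and the leaving out of SPM mice 3 and 4, were chosen with earlier results of these data known. Of the pathway genes, 1 is counted in its list but not reported here. Otherwise, named besides the 9 were pathway genes with an unadjusted p under 0.05, the 3 with the highest mean TPM in each pathway list, and the 2 genes most like each of the 9. Of the marker lists, sums are given, with genes named after their values were seen. Il11 and Mmp3 were also chosen with their values known. Promoters were read from a RefSeq table of GRCm38.p6, at the start site nearest to the one in the deposited files. On simulated counts of these libraries (20750 genes tested by edgeR), edgeR recovered 81 of 100 genes changed by 1 on the log2 scale and 99 of 100 changed by 2 after adjustment at 0.05, and made 13 false calls.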

Additional observations from a re-analysis of the deposited data

Results flagged for a closer look

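In 66 sets of 4 mice (each gene named and each marker sum, in each group), 6 had 1 mouse that lay apart from the other 3 by Dixon's criterion (the gap to the nearest mouse as a share of the range), where chance gives about 1 in 20 sets. F7 was at 49.4 CPM in vehicle mouse 1, against 34.6 to 35.1 in the other 3. Plau was at 19.7 CPM in vehicle mouse 3, against 27.1 to 28.4 in the others. F2 was at 0.0463 CPM in SPM mouse 1, a single count, and had none in the other SPM mice. F2rl1 was at 2.69 CPM in SPM mouse 1, against 0.492 to 0.646 in the other SPM mice, and at 1.45 CPM in vehicle mouse 2, against 0.391 to 0.524 in the remaining 3. The summed markers of resident large peritoneal macrophages were at 53.8 CPM in SPM mouse 1, against 77.5 to 81.9 in the other SPM mice. Causes of these values were not tested.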

How the results depend on the processing

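Across 18 alternatives, F7, F10, F5, Tfpi, Plaur and Serpinb2 kept the direction of their fold change, and no call among the 9 genes passed adjustment in 17. With genes of at least 1 count kept, edgeR called 160 of 35063 genes after adjustment and 2347 before it, of the 9 genes 1 after adjustment (Serpinb2, log2 fold change -0.77) and 3 before it, and of the other pathway genes 1 after adjustment. In that fit the total degrees of freedom were infinite, so that the spread of single genes was not used. They were 12.95 in the main fit and between 9.70 and 13.18 in the other edgeR fits.

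With each mouse left out in turn, 816 to 1584 genes had an unadjusted p under 0.05 (816 without vehicle mouse 1), and 799 did by limma above a mean TPM of 1. Of the 9 genes, 0 to 3 were called with each mouse left out (0 when the mouse was SPM 3, vehicle 1 or vehicle 2, and 3 when it was SPM 4), and 2 with SPM mice 3 and 4 left out together. Of the other pathway genes, 1 to 6 were called with each mouse left out (1 without vehicle mouse 1), 3 with filterByExpr, 1 without SPM mice 3 and 4, 3 by limma on log2(TPM + 1) and 2 by limma above a mean TPM of 1. The causes were not tested.

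Directions turned for the following genes, and no turned value had an unadjusted p under 0.05. F3 ran from -0.31 to 0.38 with each mouse left out (0.38 without vehicle mouse 3) and was 0.061, 0.12 and 0.061 by limma on log2(TPM + 1), on log2(TPM + 0.1) and above a mean TPM of 1. Thbd ran from -0.20 to 0.12 (0.08, 0.01 and 0.12 without SPM mouse 1, vehicle mouse 1 and vehicle mouse 2) and was 0.0094, 0.011 and 0.0094 by the same limma fits. Plau was -0.070 without SPM mice 3 and 4. Proz ran from -0.20 to 0.058, Anxa2 from -0.092 to 0.045 (limma 0.0042 in each fit) and Lrp1 from -0.35 to 0.031 (limma 0.020, 0.021 and 0.020). F2rl1 ran from -0.38 (without SPM mouse 1) to 1.29. Set against macrophage markers in place of resident ones, the log2 differences of F7 (-0.0070) and Tfpi (-0.025) turned negative, and with Prg4 left out of the resident markers, chosen after the data were seen, those of F7 (-0.12), F10 (-0.086), Tfpi (-0.13) and Plaur (-0.10) did. That of Serpinb2 over resident markers ran from -0.39 to 0.024 (without SPM mouse 1).

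The mouse numbers of the labels name no shared litter, batch or day. Same-numbered mice correlated in their deviations from the group means by -0.07, 0.13, 0.19 and -0.0060 over 12880 genes, so the numbers were not taken as pairs. With the number as a replicate block, 1333 genes in place of 1303 had an unadjusted p under 0.05, 0 passed adjustment, 1 of the 9 genes and 5 of the other pathway genes were called before adjustment, and F3 turned to 0.047. F3 and Tfpi, with under 80 counts per library, rest on the fewest reads of the 9 genes. P-values of the group comparisons set a difference against the spread between mice. The fit that kept genes of at least 1 count did not use the spread of single genes.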
